A study of Homo sapiens with 3 samples.

Results

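Many human genes have a second transcript on the opposite strand at the same locus, and such antisense RNAs are named after the gene they lie beside, with the suffix AS and a digit. The deposited table held 1165 rows named in this way among 50867 genes. The antisense RNAs described here are the 271 of these rows (23.3%) that averaged at least 1 CPM (a count scaled by its library's total) over the 3 libraries. Of the others, 338 had 0 counts in every library and 556 had counts but a lower mean. The members were thus chosen by their mean CPM, and no difference between libraries was used. At the threshold, RNASEH2B-AS1 (mean of 1.00 CPM) and DARS-AS1 (1.003 CPM) were just inside, and TBX2-AS1 (0.994 CPM) and H1FX-AS1 (0.992 CPM) were just outside. A row with the name of the sense gene was present for 266 members, and both genes of a pair reached 1 CPM in 246 pairs. The 5 members with no such row were HOXB-AS3, HOXB-AS4, HOXA-AS2, JHDM1D-AS1 and RPARP-AS1.

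The cells were UM-UC-3, a human line derived from a bladder cancer. All of them were made from cells infected with lentivirus and kept under puromycin for 2 weeks, so the control shares infection and selection with the hairpin lines, and the labels do not say whether a line was a single clone. The control library expressed a scramble short hairpin RNA (shControl, n = 1), and the other libraries expressed shRNA 1 or shRNA 2 against the long non-coding RNA BLACAT2 (shBLACAT2, n = 2, with 1 library for each hairpin). PolyA+ RNA was sequenced after a stranded TruSeq preparation, which keeps the strand of each RNA, but whether strand was used in counting is not given in the sources used here. Reads of an antisense RNA and of a sense gene that overlap it cannot be told apart where strand was not used.

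The control library held 16424422 counts, that of shRNA 1 held 17670199 and that of shRNA 2 held 16216947. All 8 listed epithelial markers reached 1 CPM, among them the keratins KRT7 and KRT8, while the 5 leukocyte markers summed to 18 to 32 counts a library, the 4 endothelial markers to 37 to 124 and the 4 fibroblast markers to 2 to 40. BLACAT2, listed as LINC00958, had 938, 816 and 1062 counts in the control, shRNA 1 and shRNA 2. After scaling these were 73.5% and 99.6% of the control level, with an edgeR adjusted p of 0.913. The library labelled shRNA 2 thus did not show a lower target level in these counts, and every direction below is relative to the labels.

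Antisense RNAs arise in several ways. Many promoters fire in both directions, so that an antisense RNA and its sense gene start back to back and often share control elements. Others start inside or downstream of the sense gene and run back across it, and a few are known to act on that gene, as CDKN2B-AS1 (ANRIL) does through Polycomb proteins at the locus of the cell cycle inhibitor CDKN2B. In cancer cells antisense RNAs are used as readouts of the state of their locus, and some, such as OIP5-AS1 and ZEB1-AS1, have been studied as regulators in their own right.

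The antisense RNAs were present at low levels. Their median was 3.41 CPM against 24.9 CPM for the 15132 genes that reached the same mean, and 48 members reached 10 CPM. Together they took 0.181%, 0.201% and 0.244% of the counts of the control, shRNA 1 and shRNA 2. The most abundant was FGD5-AS1, a long non-coding RNA, with 3502, 3439 and 3021 counts in the control, shRNA 1 and shRNA 2. Its sense gene FGD5, an exchange factor for CDC42 known from endothelial cells, had 14, 6 and 36 counts in the same order. LRRC75A-AS1, also called SNHG29 and a host of small nucleolar RNAs, followed with 1214, 2085 and 3280 counts. OIP5-AS1, the vertebrate RNA Cyrano that binds the microRNA miR-7, had 962, 1212 and 1395 counts.

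Levels per length were compared within pairs on the deposited FPKM scale. In the control the antisense RNA was above its sense gene in 45 of 246 pairs, with shRNA 1 in 46 and with shRNA 2 in 51, and in 34 pairs in all 3 libraries. The median FPKM ratio of antisense to sense was 0.238, 0.270 and 0.283 in the same order. FGD5-AS1 stood far above its sense gene, at 22.2, 20.3 and 19.4 FPKM against 0.0832, 0.0332 and 0.217 for FGD5. LRRC75A-AS1 was at 4.44, 7.09 and 12.1 FPKM against 0.146, 1.13 and 1.35 for LRRC75A. OIP5-AS1 was close to OIP5, a protein of the centromere, at 3.86, 4.52 and 5.67 FPKM against 3.10, 4.43 and 3.37. Among these pairs the usual antisense RNA was thus the less abundant transcript of its locus in each library, with a minority of loci reversed. The 20 members whose sense gene was under 1 CPM were not part of this comparison.

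**Figure D1:**
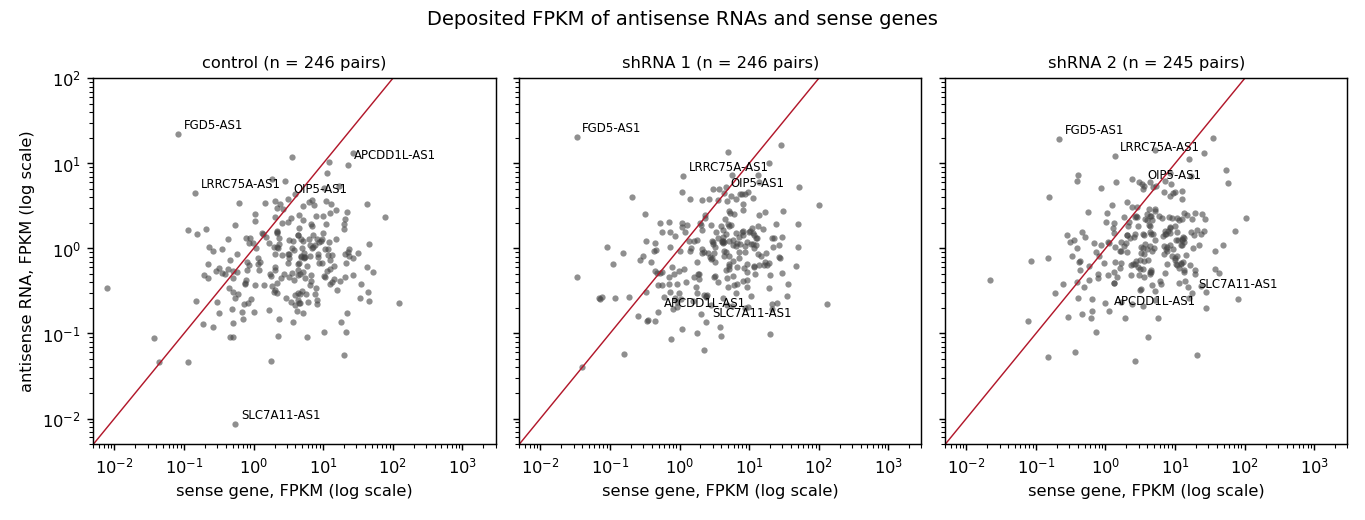
Deposited FPKM of each antisense RNA (y axis, log scale) against its sense gene (x axis, log scale) in each library, with 1 point a pair and a line of equality. Most points lie below the line, FGD5-AS1 lies far above it in every library, and 1 pair with an antisense value of 0 is not drawn for shRNA 2.

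A member was counted as higher or lower when its log2 fold over the control was at least 1, a 2-fold change, with both hairpins in the same direction. This is a rule of size and not a test. By it 18 members (6.64%) were higher, 11 (4.06%) were lower and 242 were neither. Among all 15132 genes 5.29% were higher and 4.5% were lower, so the members' shares lay near the background. Most members were of low level, where a larger share of genes passed the rule. Of all genes of 1 to 10 CPM 14.9% passed it in either direction, against 11.2% of the members in that range. At 10 CPM or more 7.33% of the genes and 8.33% of the members did. With the library totals as the only scaling, which moved the median log2 fold of all genes to 0.14 and 0.24, 22 members were higher and 8 lower, against 6.81% and 3.65% of all genes. Of the 29 members, 14 were under 1 CPM in at least 1 library, and 10 of the 18 higher ones were under 1 CPM in the control. A member that reached the mean only through the libraries where it was high had to differ.

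Both hairpin libraries were set against the control with edgeR (quasi-likelihood, Benjamini-Hochberg adjustment over all genes), which called 1 member, APCDD1L-AS1, against 0.0397% of all genes (6 genes). At an unadjusted p under 0.05, 18 members passed (6.64%), against 10.2% of all genes. DESeq2 called APCDD1L-AS1, HHIP-AS1 and STARD4-AS1, against 3.51% of all genes. Neither limma nor edgeR without the low-level filter or at a mean of 5 CPM called a member, so the call of APCDD1L-AS1 was lost there. The test has 1 residual degree of freedom, and its p-values measure only the spread between these libraries.

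**Figure D2:**
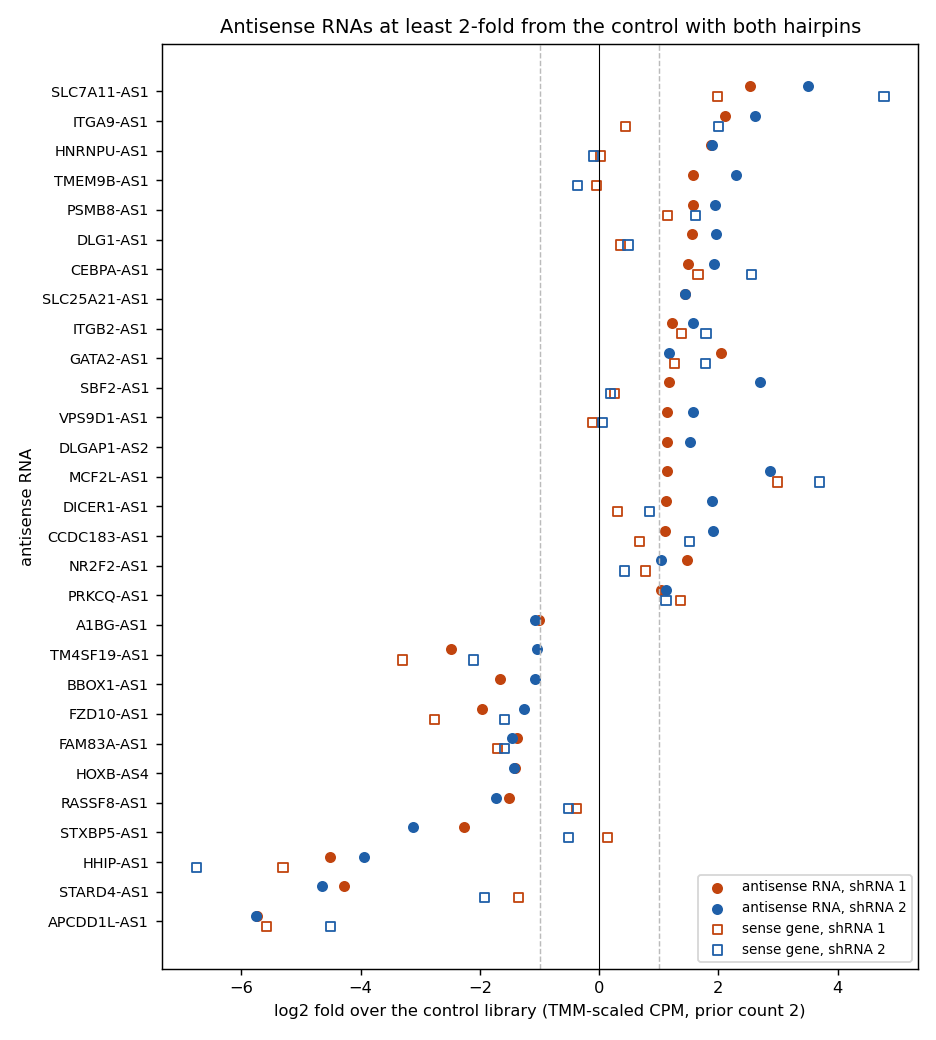
Log2 folds over the control of the 29 antisense RNAs at least 2-fold away with both hairpins (filled circles) and of their sense genes where tested (open squares), with shRNA 1 in orange and shRNA 2 in blue and dashed lines at a log2 fold of 1 either way. APCDD1L-AS1, STARD4-AS1 and HHIP-AS1 lie far below the rest, and no sense gene lies past the dashed line on the opposite side of its antisense RNA with both hairpins.

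The lower members were led by 3 antisense RNAs beside a Wnt-related gene, a Hedgehog inhibitor and a cholesterol carrier. APCDD1L-AS1 (ENSG00000231290; hg38 chromosome 20, 58515379 to 58619888, plus strand) had 1003, 20 and 19 counts in the control, shRNA 1 and shRNA 2. Its sense gene APCDD1L, a relative of the Wnt inhibitor APCDD1, had 1746, 41 and 85 counts. Both genes were thus high in the control alone. The antisense RNA had log2 folds of -5.75 and -5.76 and APCDD1L of -5.58 and -4.51. Over both hairpins edgeR put the log2 fold of APCDD1L-AS1 at -5.89 (SE 0.381), with an adjusted p of 0.0458. The annotated starts of the pair lie 248 bases apart on opposite strands and the genes share no exon bases in the GENCODE 29 annotation.

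HHIP-AS1 (ENSG00000248890; chromosome 4, 144642922 to 144661357, minus strand) had 271, 12 and 18 counts in the control, shRNA 1 and shRNA 2. HHIP, a membrane protein that binds and restrains Hedgehog ligands, had 670, 18 and 5 counts. Again both transcripts were abundant in the control only. The log2 folds were -4.51 and -3.95 for HHIP-AS1 and -5.30 and -6.76 for HHIP. With shRNA 2 the difference was larger for the sense gene: antisense counts per sense count were 8.88 times the control ratio there (95% counting interval 3.14 to 30.9) and 1.65 times with shRNA 1 (0.713 to 3.67). Its edgeR adjusted p was 0.077.

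STARD4-AS1 (ENSG00000246859; chromosome 5, 111512226 to 111739726, plus strand) had 1040, 61 and 45 counts. STARD4, a protein that carries cholesterol between membranes and is known as a sterol-responsive gene, had 2743, 1271 and 818 counts. The antisense RNA was 20.2-fold lower with shRNA 1 and 26.3-fold lower with shRNA 2, while the log2 folds of STARD4 were -1.35 and -1.93. For every 100 counts of STARD4 the control held 37.9 antisense counts, shRNA 1 held 4.80 and shRNA 2 held 5.50. The antisense to sense ratio was therefore 0.127 times the control ratio with shRNA 1 (95% counting interval 0.0953 to 0.166) and 0.145 times with shRNA 2 (0.104 to 0.198). The edgeR adjusted p of STARD4-AS1 was 0.0696.

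The other lower members were scarcer. FZD10-AS1 had 233, 69 and 109 counts, and FZD10, a receptor for Wnt ligands, had 411, 70 and 154. FAM83A-AS1 had 88, 39 and 35 counts beside 3756, 1363 and 1417 of FAM83A, a scaffold protein of growth factor signalling. TM4SF19-AS1 had 65, 12 and 35 counts beside 74, 7 and 18 of TM4SF19, a membrane protein. In each of these pairs the control was highest for both transcripts. BBOX1-AS1 (28, 9 and 14 counts) had a sense gene with 0 counts in every library, and A1BG-AS1 (41, 23 and 21 counts) had one with 3 to 6 counts, while HOXB-AS4 (88, 38 and 36 counts) lies in the HOXB cluster with no single sense gene in its name.

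STXBP5-AS1 and RASSF8-AS1 were lower without their sense genes. STXBP5-AS1 (chromosome 6, 146841901 to 147204614, minus strand) had 60, 13 and 6 counts in the control, shRNA 1 and shRNA 2. STXBP5, or tomosyn, an inhibitor of vesicle fusion that binds SNARE proteins, had 672, 879 and 536 counts. The antisense level was highest in the control, while the sense gene was highest with shRNA 1 and lowest with shRNA 2. Antisense counts per sense count were 0.166 times the control ratio with shRNA 1 (95% counting interval 0.0828 to 0.309) and 0.126 times with shRNA 2 (0.044 to 0.293). RASSF8-AS1 had 71, 28 and 23 counts beside 345, 314 and 274 of RASSF8, a protein with a Ras association domain. Its ratio was 0.434 times that of the control with shRNA 1 (0.262 to 0.701) and 0.408 times with shRNA 2 (0.237 to 0.682).

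Among the higher members, 7 had a sense gene that was also higher with both hairpins. PSMB8-AS1 (ENSG00000204261; chromosome 6, 32844086 to 32846495, plus strand) had 23, 85 and 106 counts in the control, shRNA 1 and shRNA 2. PSMB8, an interferon-induced subunit of the immunoproteasome, had 311, 819 and 1089. The control was lowest for both transcripts. The log2 folds were 1.57 and 1.94 for the antisense RNA and 1.15 and 1.62 for PSMB8, and the antisense to sense ratio differed from the control by less than counting error (1.40 times, 0.858 to 2.38, and 1.32 times, 0.816 to 2.20). GENCODE 29 puts 31.7% of the exon bases of PSMB8-AS1 over exons of PSMB8.

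SLC7A11-AS1 (ENSG00000250033; chromosome 4, 138057464 to 138178177, plus strand) had 1, 17 and 34 counts in the same order. SLC7A11, the cystine transporter that feeds glutathione synthesis, had 89, 425 and 2836 counts. With so little in the control, the fold of the antisense RNA was poorly determined: 14.4 with shRNA 1 (95% counting interval 2.25 to 600.4) and 29.9 with shRNA 2 (5.02 to 1215). The pair lies tail to tail, and 14.0% of the antisense exon bases overlap exons of SLC7A11.

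Transcription factor loci were among these pairs. CEBPA-AS1 (ENSG00000267296; chromosome 19, 33302857 to 33305054, plus strand) had 7, 27 and 36 counts beside 21, 83 and 150 of CEBPA, a factor of myeloid and fat cell differentiation. GATA2-AS1 had 90, 446 and 233 counts, and GATA2, a zinc finger factor of blood and endothelial cells, had 244, 699 and 957. At the GATA2 locus the antisense RNA was highest with shRNA 1 and the sense gene with shRNA 2. The antisense to sense ratio was accordingly 1.73 times the control ratio with shRNA 1 (1.31 to 2.29) and 0.66 times with shRNA 2 (0.495 to 0.885).

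Signalling and adhesion genes made up the rest. PRKCQ-AS1 had 57, 140 and 144 counts beside 98, 303 and 245 of PRKCQ, the protein kinase C theta of T cells and muscle. ITGB2-AS1 had 8, 25 and 31 counts beside 37, 118 and 151 of ITGB2, the beta chain of leukocyte integrins. MCF2L-AS1 had 4, 13 and 46 counts beside 5, 62 and 98 of MCF2L. Per 100 sense counts, ITGB2-AS1 had 21.6 in the control, against 21.2 and 20.5 with the hairpins, and the ratio stayed within counting error of the control ratio (0.98 times, 0.386 to 2.73, and 0.95 times, 0.385 to 2.59). PTPRC, which marks all leukocytes, had 0, 3 and 4 counts in the same libraries. PRKCQ-AS1 and MCF2L-AS1 lie outside the naming rule and were chosen after their values were seen.

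A second set of higher members had a sense gene within 1.5-fold of the control with both hairpins. HNRNPU-AS1 had 20, 93 and 90 counts in the control, shRNA 1 and shRNA 2, while HNRNPU, an abundant nuclear RNA-binding protein, had 9660, 11577 and 10317. Its level per 100 sense counts went from 0.207 in the control to 0.803 and 0.872, and the ratio was 3.88 times that of the control with shRNA 1 (95% counting interval 2.37 to 6.65) and 4.21 times with shRNA 2 (2.57 to 7.23). TMEM9B-AS1 had 5, 22 and 36 counts beside 623, 712 and 552 of TMEM9B, a membrane protein of lysosomes. DLG1-AS1 had 10, 39 and 50 counts beside 1556, 2358 and 2474 of DLG1, a scaffold of cell polarity. In all 3 of these pairs the antisense RNA was lowest in the control.

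SBF2-AS1 had 28, 77 and 219 counts beside 726, 1028 and 940 of SBF2, a myotubularin-related protein of membrane traffic. VPS9D1-AS1 had 22, 60 and 79 counts beside 158, 173 and 187 of VPS9D1, a protein with a Rab exchange domain. Both antisense RNAs were lowest in the control and highest with shRNA 2. GENCODE 29 places 32.2% of the SBF2-AS1 exon bases and 29.5% of those of VPS9D1-AS1 over sense exons. Per length, ITGA9-AS1 (8, 48 and 66 counts) was at 0.0463, 0.258 and 0.387 FPKM, and ITGA9, an integrin alpha chain, was at 0.0444, 0.0707 and 0.244 FPKM. SLC25A21-AS1 had 6, 23 and 22 counts, and its sense gene, a mitochondrial carrier, had 1, 17 and 24, under the mean of 1 CPM.

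**Figure D3:**
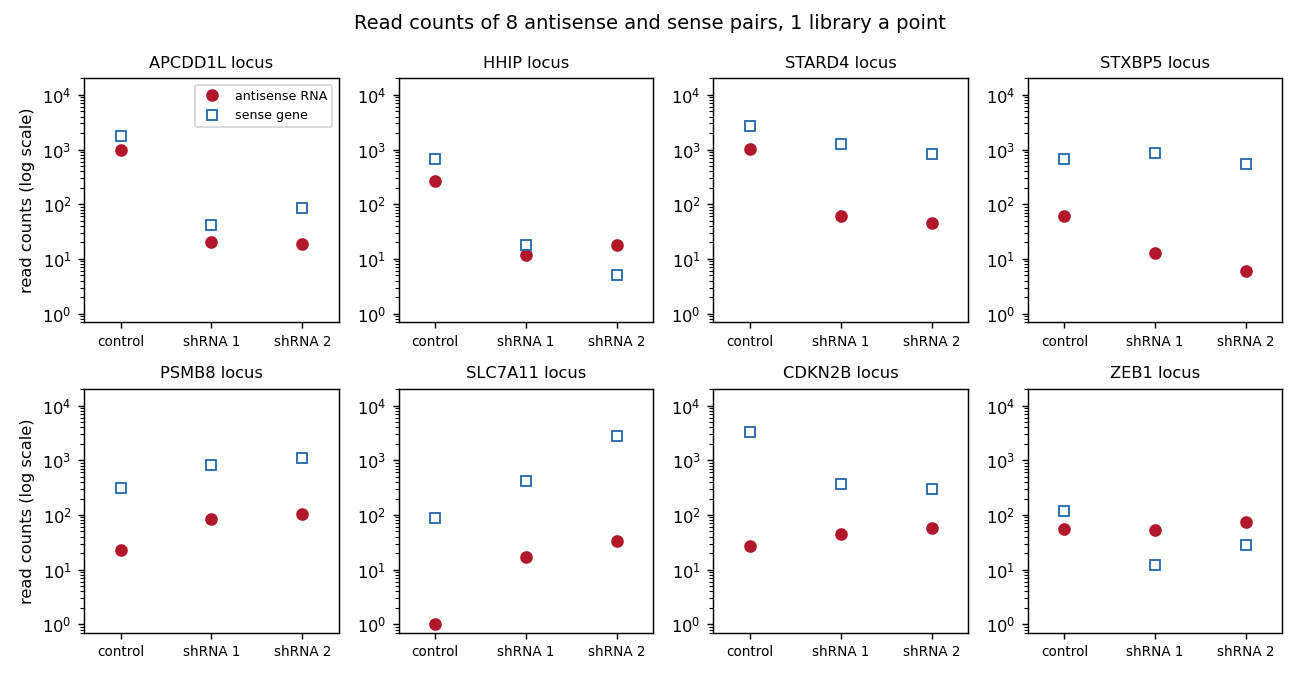
Read counts (y axis, log scale) of the antisense RNA (filled circles) and the sense gene (open squares) of 8 loci in the control, shRNA 1 and shRNA 2, with 1 library a point. Both transcripts are lower with the hairpins at APCDD1L and HHIP, only the antisense RNA is far lower at STXBP5, and only the sense gene is lower at CDKN2B and ZEB1.

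Over all pairs, 24 of the 29 members had a tested sense gene. The sense gene had the same call in 13 of them (54.2%), 7 higher and 6 lower. Of all genes 9.79% were past the rule in either direction, 5.29% higher and 4.5% lower. It had the opposite call in 0 pairs and was within 1.5-fold with both hairpins in 7 pairs. The remaining 4 were ITGA9-AS1, CCDC183-AS1, DICER1-AS1 and NR2F2-AS1, whose sense genes were higher by less than the rule asks with at least 1 hairpin. These folds share libraries and a control, and neighbouring genes are not independent, so the share is a description.

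Seen from the sense gene, 28 of the 242 tested sense genes (11.6%) were past the rule, against 9.79% of all genes. In the 29 pairs with such a sense gene, the antisense RNA had the same call in 13 (44.8%). Of all members, 6.64% were higher and 4.06% were lower by the rule. In the other 16 the antisense RNA was not past it with both hairpins, 11 with a lower and 5 with a higher sense gene. The largest of these gaps was at CDKN2B. CDKN2B-AS1 (ENSG00000240498; chromosome 9, 21994778 to 22121097, plus strand) had 27, 45 and 58 counts in the control, shRNA 1 and shRNA 2. CDKN2B, the inhibitor p15 of the kinases CDK4 and CDK6, had 3241, 374 and 297. The antisense RNA was lowest where the sense gene was highest, and the ratio was 14.4 times that of the control with shRNA 1 (95% counting interval 8.64 to 24.5) and 23.4 times with shRNA 2 (14.3 to 39.0).

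ZEB1, a repressor that drives the loss of epithelial character, had 116, 12 and 28 counts, while ZEB1-AS1 had 55, 53 and 74. The starts of the pair lie 1952 bases apart, and 9.6% of the antisense exon bases overlap ZEB1 exons. VIM-AS1 followed its sense gene with 1 hairpin and not clearly with the other: it had 40, 27 and 0 counts beside 7583, 1061 and 154 of VIM, the intermediate filament vimentin. Against a floor of 3 counts it was at least 15.2-fold lower with shRNA 2. With shRNA 1 the level was 0.57 times the control (95% counting interval 0.337 to 0.953) while VIM had a log2 fold of -3.08.

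Further pairs were chosen after their values were seen, from those with a lower sense gene and an antisense RNA not past the rule. A gap between the calls of both genes was thus fixed by that choice. INHBA-AS1 had 61, 25 and 40 counts beside 8642, 1698 and 2517 of INHBA, a subunit of activin. FRMD6-AS1 had 18, 26 and 14 counts beside 10039, 2049 and 2306 of FRMD6, a protein of the Hippo pathway. FOXN3-AS1 had 23, 18 and 35 counts beside 1522, 482 and 411 of FOXN3, a forkhead repressor. The sense gene was highest in the control at each of the 3 loci, and only INHBA-AS1 was also highest there.

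In the 5 pairs with a higher sense gene the antisense RNA was, by that choice, not past the rule. LRRC75A had 17, 141 and 155 counts beside the much larger counts of its antisense RNA, whose log2 folds were 0.54 and 1.25. CYP1B1, a cytochrome induced by the aryl hydrocarbon receptor, had 84, 282 and 1173 counts, and CYP1B1-AS1 had 54, 88 and 91. NEURL1, a ubiquitin ligase that acts on Notch ligands, had 1081, 4695 and 5001 counts, and NEURL1-AS1 had 44, 35 and 96. CYP1B1-AS1 and NEURL1-AS1 were also chosen after their values were seen. In all, the antisense to sense ratio was at least 2-fold above the control ratio with both hairpins in 16 pairs and at least 2-fold below it in 7. These calls are differences of the log2 folds with a prior count of 2, and VIM-AS1 is among the 16 through that prior, since it had 0 counts with shRNA 2.

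The position of the genes was then compared. Of the 271 members, 109 overlapped the sense gene head to head, 57 were divergent with separate spans, 55 overlapped tail to tail, 43 were nested and 7 were not placed. Across the 246 pairs the log2 fold of the antisense RNA had a Pearson r of 0.59 with that of the sense gene for shRNA 1 and 0.58 for shRNA 2 (Spearman 0.35 and 0.31). Without APCDD1L-AS1 and HHIP-AS1, left out after their values were seen, it was 0.44 and 0.50. The 57 divergent pairs, whose exons do not overlap, had r of 0.82 and 0.66, and 0.57 and 0.35 without APCDD1L-AS1. The 100 head-to-head overlapping pairs had 0.56 and 0.64, and 0.41 and 0.57 without HHIP-AS1. The 52 tail-to-tail pairs had 0.50 and 0.44 and the 35 nested pairs 0.43 and 0.50. By Spearman the divergent pairs had 0.44 and 0.30 and the head-to-head pairs 0.36 and 0.37. The tail-to-tail pairs had 0.18 and 0.23 and the nested pairs 0.47 and 0.27, so the divergent pairs did not lead by that measure. In the 91 pairs whose member averaged at least 5 CPM, Pearson r was 0.81 and 0.64 and Spearman 0.51 and 0.12.

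Shared exon bases did not go with a larger r. In the 86 pairs with no shared exon bases r was 0.67 and 0.60, and in the 158 pairs with some it was 0.55 and 0.58. APCDD1L-AS1 is among the 86 and HHIP-AS1 among the 158, and r was not recomputed without them here. The Spearman values, which depend less on such pairs, were 0.48 and 0.44 for the 86 and 0.30 and 0.25 for the 158. By role of the sense gene, the 32 pairs with signalling genes had r of 0.78 and 0.78, and 0.45 and 0.56 without APCDD1L-AS1 and HHIP-AS1. The 58 pairs with genes of RNA metabolism, protein turnover and other housekeeping had 0.08 and 0.20. In that housekeeping class the median antisense log2 folds were 0.31 and 0.56 against 0.07 and 0.06 for the sense genes. All of these are correlations across pairs that share libraries, depth and the single control, so they describe these libraries and carry no test. The differences between classes were not tested.

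**Figure D4:**
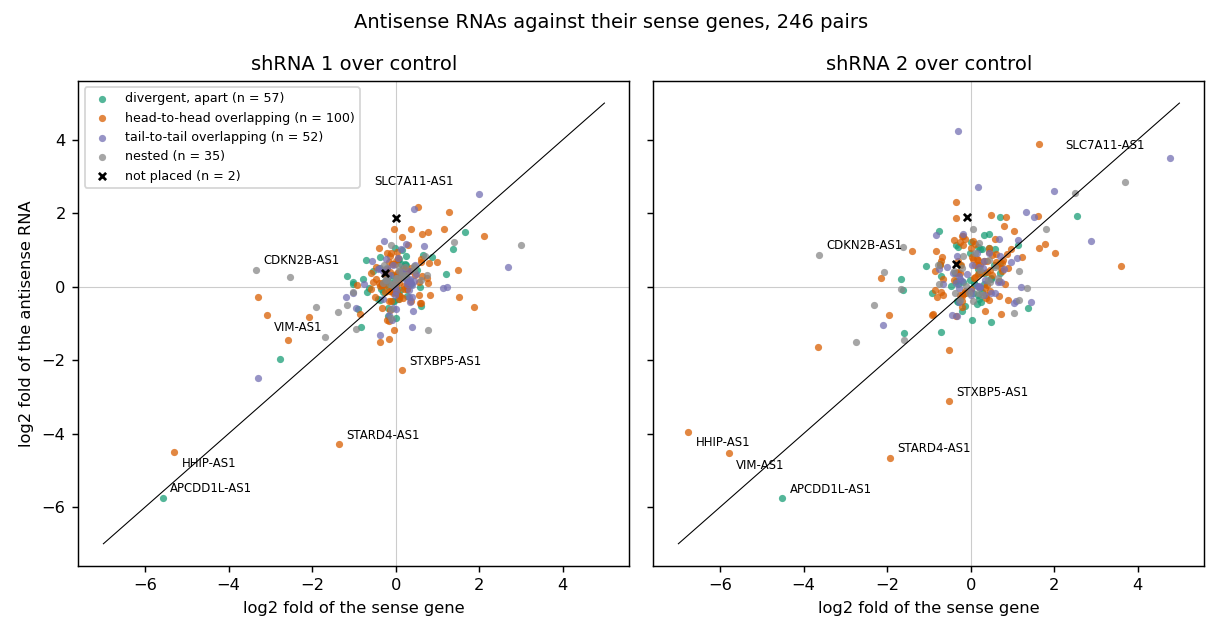
Log2 fold of the antisense RNA (y axis) against that of its sense gene (x axis) for 246 pairs, with shRNA 1 on the left and shRNA 2 on the right, coloured by the position of the genes and with a line of equality. APCDD1L-AS1 and HHIP-AS1 lie at the lower left, STXBP5-AS1 and STARD4-AS1 lie below it, and CDKN2B-AS1 lies above it, while VIM-AS1 had 0 counts with shRNA 2, so its height there is set by the prior count.

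The promoters of the antisense RNAs were then described. Windows from 250 bases before to 50 bases after the RefSeq start (GRCh38.p14) were matched by symbol for 215 of 271 members. A CpG observed to expected ratio of at least 0.6 was found in 75.8% of them and in 48.96% of all 27305 windows of that length. A GC box (GGGCGG on either strand) was found in 62.3% against 44.6%, a CCAAT box (CCAAT on either strand) in 30.7% against 35.7%, and a TATA box (TATAAA on either strand) in 6.05% against 11.95%. Of the 45 divergent members with a window, 93.3% had that CpG ratio and 84.4% a GC box. Among the 213 windows of sense genes, 78.4% had that CpG ratio and 65.7% a GC box, so neither trait was particular to the antisense RNAs. Windows of a pair with close starts can share bases, so both sets are not independent. In the divergent pairs the median distance between GENCODE starts was 118 bases. The members had to reach 1 CPM, while the 27305 windows were not chosen by level.

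The windows of 6 antisense RNAs past the size rule are shown so that the starts described above can be read. The sense gene had the same call at HHIP-AS1, CEBPA-AS1, PSMB8-AS1 and STARD4-AS1 and was within 1.5-fold of the control at STXBP5-AS1 and TMEM9B-AS1, and the letters marked do not separate these loci. Each is written 5′ to 3′ on the antisense RNA's own strand, with GC boxes, CCAAT boxes and the interferon element (GAAA, any 2 bases, GAAA) in capitals wherever they occur on either strand. They lie at chr4:144645970-144646269 (HHIP-AS1, minus strand), chr19:33302571-33302870 (CEBPA-AS1, RefSeq CEBPA-DT, plus strand), chr6:32843836-32844135 (PSMB8-AS1, plus strand), chr5:111511976-111512275 (STARD4-AS1, plus strand), chr6:147204565-147204864 (STXBP5-AS1, minus strand) and chr11:8964425-8964724 (TMEM9B-AS1, plus strand).
HHIP-AS1: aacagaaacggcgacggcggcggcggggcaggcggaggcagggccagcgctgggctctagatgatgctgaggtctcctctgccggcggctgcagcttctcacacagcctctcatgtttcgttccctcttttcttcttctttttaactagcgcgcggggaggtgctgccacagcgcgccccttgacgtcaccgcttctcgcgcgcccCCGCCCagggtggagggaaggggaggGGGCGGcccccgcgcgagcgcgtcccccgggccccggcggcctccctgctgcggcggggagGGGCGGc
CEBPA-AS1: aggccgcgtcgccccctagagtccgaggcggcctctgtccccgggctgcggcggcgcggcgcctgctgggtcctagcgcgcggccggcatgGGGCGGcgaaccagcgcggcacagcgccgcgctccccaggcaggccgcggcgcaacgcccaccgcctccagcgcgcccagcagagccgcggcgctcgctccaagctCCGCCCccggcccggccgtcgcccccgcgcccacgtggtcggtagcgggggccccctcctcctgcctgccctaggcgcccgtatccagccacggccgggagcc
PSMB8-AS1: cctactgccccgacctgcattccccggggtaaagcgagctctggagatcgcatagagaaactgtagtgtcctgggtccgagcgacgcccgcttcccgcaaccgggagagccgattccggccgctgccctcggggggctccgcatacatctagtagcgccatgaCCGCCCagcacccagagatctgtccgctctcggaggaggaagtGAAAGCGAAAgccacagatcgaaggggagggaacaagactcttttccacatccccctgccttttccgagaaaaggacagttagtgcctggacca
STARD4-AS1: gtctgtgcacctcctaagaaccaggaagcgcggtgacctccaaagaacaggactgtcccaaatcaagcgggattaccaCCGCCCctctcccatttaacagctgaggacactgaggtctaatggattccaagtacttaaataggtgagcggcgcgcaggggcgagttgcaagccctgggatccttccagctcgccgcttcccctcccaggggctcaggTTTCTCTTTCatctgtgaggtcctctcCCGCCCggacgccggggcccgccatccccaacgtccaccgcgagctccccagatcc
STXBP5-AS1: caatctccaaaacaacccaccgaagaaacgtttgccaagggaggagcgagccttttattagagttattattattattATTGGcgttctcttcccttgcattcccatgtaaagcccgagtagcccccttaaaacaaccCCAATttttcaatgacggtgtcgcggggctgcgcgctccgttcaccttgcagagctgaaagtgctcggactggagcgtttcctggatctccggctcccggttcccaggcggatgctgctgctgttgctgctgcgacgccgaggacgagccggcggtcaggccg
TMEM9B-AS1: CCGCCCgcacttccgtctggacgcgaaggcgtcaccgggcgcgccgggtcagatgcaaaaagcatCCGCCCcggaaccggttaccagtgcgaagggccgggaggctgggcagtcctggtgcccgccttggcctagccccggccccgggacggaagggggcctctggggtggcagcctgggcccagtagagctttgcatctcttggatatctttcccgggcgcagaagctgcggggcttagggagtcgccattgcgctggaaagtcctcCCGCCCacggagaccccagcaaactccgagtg

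In RefSeq the starts of HHIP-AS1 and HHIP lie 137 bases apart and point away from each other, those of CEBPA-AS1 and CEBPA 287 bases and those of PSMB8-AS1 and PSMB8 39 bases. The start of TMEM9B-AS1, which was higher without TMEM9B, is likewise divergent, at 233 bases. STARD4-AS1 starts 309 bases inside the span of STARD4 and STXBP5-AS1 starts 197 bases inside that of STXBP5. GENCODE 29 starts HHIP-AS1 and PSMB8 further upstream, so those pairs count as overlapping above. The windows of HHIP-AS1 and TMEM9B-AS1 hold 3 GC boxes each, those of CEBPA-AS1 and STARD4-AS1 hold 2 each, that of PSMB8-AS1 holds 1 and that of STXBP5-AS1 holds 0 GC boxes and 2 CCAAT boxes. The interferon element occurs once each in the windows of PSMB8-AS1, which was higher, and STARD4-AS1, which was lower, and in 3.65% of all windows. A match is a description of letters and was not tested as a site.

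Annotated overlap with the sense exons went with whether an antisense row reached 1 CPM. Among rows whose sense gene had at least 10 CPM, 72 of 266 with no shared exon bases reached it (27.1%). With up to 25% of their exon bases shared, 98 of 229 did (42.8%), and with 25% to 50%, 17 of 57 (29.8%). Above 50% it was 1 of 43 (2.3%), and the median of that class was 0 CPM. That row was TTN-AS1, beside the giant muscle protein titin, with 28, 38 and 32 counts and 55.1% of its exon bases shared. A low RNA level and a rule in counting that leaves out reads over 2 genes cannot be told apart here.

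**Figure D5:**
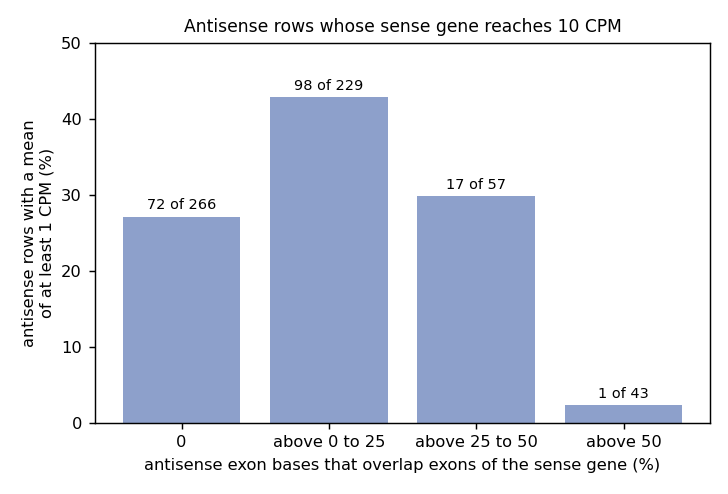
Percent of antisense rows with a mean of at least 1 CPM (bars, with the number of rows above) by the share of their exon bases that overlap exons of the sense gene, among rows whose sense gene reached 10 CPM. Above 50% overlap 1 of 43 rows reached that level.

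The hairpins were then taken 1 at a time. With shRNA 1, 26 members were at least 2-fold higher and 19 lower, against 7.92% and 7.38% of all genes, which is 9.59% and 7.01% of the members. With shRNA 2, 62 were higher (22.9%) and 16 lower (5.90%), against 13.0% and 8.76% of all genes. The median log2 fold of the members was 0.14 with shRNA 1 and 0.37 with shRNA 2, beside 0.01 and 0.04 for all genes and 0.02 and 0.15 for the 242 sense genes. Low-level genes as a whole were more often higher with shRNA 2: of the genes of 1 to 10 CPM 21.9% were, beside 22.9% of the 223 members in that range. At 10 CPM or more the share was 8.62% of the genes and 11 of 48 members (22.9%). The 144 rows of intergenic long non-coding RNAs named LINC had medians of 0.07 and 0.23. With both hairpins 16 of them were higher (11.1%) and 10 lower (6.94%), against 5.29% and 4.5% of all genes.

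Some members differed mainly between the hairpins. MRPL23-AS1, next to H19 on chromosome 11, had 7, 10 and 186 counts in the control, shRNA 1 and shRNA 2, while MRPL23, a protein of the mitochondrial ribosome, had 302, 455 and 280. LURAP1L-AS1 had 3, 7 and 78 counts, a ratio to the control of 22.9 with shRNA 2 (95% counting interval 7.54 to 113) and of 1.97 with shRNA 1 (0.45 to 11.8). UNC5B-AS1 had 8, 3 and 63 counts beside 93, 191 and 605 of UNC5B, a netrin receptor. In these pairs shRNA 2 stood apart for the antisense RNA, and for UNC5B also for the sense gene. LURAP1L, the sense gene of LURAP1L-AS1, had log2 folds of 0.99 with shRNA 1 and 1.63 with shRNA 2.

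LBX2-AS1 had 35, 26 and 130 counts beside 32, 34 and 65 of LBX2, a homeobox gene. GAS6-AS1 had 70, 32 and 144 counts beside 1346, 1228 and 1215 of GAS6, the ligand of AXL receptors. EPHA1-AS1 went the other way, with 8, 50 and 8 counts beside 655, 1128 and 458 of EPHA1, an ephrin receptor. A gap of at least 2-fold between the hairpins was found in 44 members (16.2%), against 12.8% of all genes. At 1 to 10 CPM, where most members lie, the share was 17.9% of the members and 22.9% of the genes. At 10 CPM or more it was 8.33% and 7.95%. The higher share of the members over all genes was thus not seen in the low-level range. Each hairpin has 1 library, so hairpin and library cannot be told apart.

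Antisense RNAs with a known function in other cells formed a list of 38 names, of which 24 were members. With both hairpins 2 were higher (SBF2-AS1 and ITGB2-AS1), 0 were lower and 22 were neither. These are 8.33% and 0% of the 24, against 5.29% higher and 4.5% lower of all genes, and the median log2 folds were 0.14 and 0.30. None passed the adjusted test with edgeR or DESeq2, and 1 (4.17%) had an unadjusted edgeR p under 0.05, against 10.2% of all genes. OIP5-AS1 had log2 folds of 0.09 and 0.35, FGD5-AS1 of -0.27 and -0.40 and LOXL1-AS1, beside an enzyme of elastin crosslinking, of 0.09 and 0.15. GABPB1-AS1, beside a subunit of the factor GABP, had 283, 430 and 777 counts. TP73-AS1, beside the p53 relative TP73, had 717, 666 and 717 counts, and after scaling its log2 folds were -0.35 and -0.18.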

How the data were processed

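Gene expression was measured in 3 UM-UC-3 libraries, 1 of shControl and 2 of shBLACAT2, grouped by title. The submitters' processing notes name TopHat2 2.0.9 and the build hg38. How reads were assigned to genes, on which strand and with which annotation, is not given in the sources used here. The table deposited by the authors gives whole-number read counts per gene and FPKM values, named as such in its column headers. Counts were used for all comparisons between libraries, and FPKM only to compare levels within pairs. The row of TGFB1 was broken over several lines and left out.

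The 15132 genes that averaged 1 CPM or more were scaled with edgeR 4.0.16 TMM factors (0.924, 1.02 and 1.06), and log2 folds used a prior count of 2. The size rule asked for 2-fold with both hairpins. Groups were tested with edgeR (glmQLFit and glmQLFTest, two-sided), with DESeq2 1.42.0 and limma 3.58.1 as alternatives in R 4.3.3. It has 1 residual degree of freedom, taken from the hairpin libraries, whose spread was assumed to hold for the single control. Counting intervals are exact conditional intervals at the 95% level and cover counting error only, as the reads carry no molecular identifiers. Antisense to sense ratios were called from the difference of both log2 folds. Strand, exons and relative position came from GENCODE release 29, and positions from the deposited table. Promoter windows are from RefSeq.

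The members, lists and tests were chosen with earlier results of these data known. Members were named if edgeR called them, if they were among the 12 highest or 12 lowest by the smaller fold of those past the size rule, among the 10 of highest mean CPM, among 6 pairs with a sense gene within 1.5-fold, among 6 with the largest gap between hairpins, or in the known-function list. Alternatives were other scalings, low-level filters, a prior count of 0.5, leaving out either hairpin library, other tests, and pairs with overlapping spans only.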

Additional observations from a re-analysis of the deposited data

How the results depend on the processing

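With DESeq2's size factors all 29 members past the size rule were shared, with the library totals 26 were (A1BG-AS1, BBOX1-AS1 and TM4SF19-AS1 were lost), and with a prior count of 0.5 all 29 were. The library totals moved the median log2 fold of the sense genes from 0.105 to 0.275. With no low-level filter, 44 antisense rows were higher and 41 lower, 39 sense genes were higher and 55 lower, 33 pairs had the same direction and 106 had a changed ratio, against 18, 11, 12, 16, 13 and 23. With a mean of at least 5 CPM, the counts were 6 higher and 4 lower antisense RNAs, 5 higher and 6 lower sense genes, 6 pairs in the same direction and 4 with a changed ratio. Fewer genes were tested at that mean, and whether this accounts for the lower counts was not tested. Without the filter, the 556 antisense rows with counts but a mean under 1 CPM were included. The shares of all genes past the rule were not computed for either filter, so these counts have no background beside them.

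The group test called 1 member with edgeR, 3 with DESeq2, 0 with limma, 0 with edgeR without a filter and 0 with edgeR at 5 CPM, with 18 members at an unadjusted edgeR p under 0.05. Leaving out 1 hairpin library gave values with no test: 26 to 62 higher and 16 to 19 lower antisense RNAs, 15 to 29 higher and 19 to 20 lower sense genes, 15 to 25 pairs in the same direction, 0 to 1 in opposite directions and 46 to 75 with a changed ratio. The larger number of higher antisense RNAs came without shRNA 1, and the medians were 0.135 to 0.369 for antisense RNAs and 0.0153 to 0.148 for sense genes. Of the other 778 recomputed values of named genes and pairs, 728 stayed within their spread or side of the threshold, 42 moved by more than that and 8 gained a DESeq2 call. Values without 1 hairpin library are among the 728 by construction, since the spread is that between the same hairpin libraries. The log2 fold of MRPL23-AS1, for example, counted as unmoved although it went from 2.23 to 4.23 without shRNA 1 and to 0.22 without shRNA 2. The 728 are thus no measure of stability between the hairpins. Where a cause is not stated, the cause was not tested.

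Counts under about 10 in the control, as in SLC7A11-AS1 and TMEM9B-AS1, limit those folds. No paired analysis was possible because the control group has 1 library, so the groups share fewer than 2 replicate numbers.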

Other observations

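GENCODE 29 calls 184 of the 271 members antisense genes, 37 processed transcripts and 37 intergenic long non-coding RNAs, although all are named after a neighbour. It lists 3 as protein coding, MMP24-AS1, FAM83H-AS1 and NCBP2-AS2. A further 10 members share 5 sense genes in pairs. At EPB41L4A, which encodes a cytoskeletal linker of the membrane and had 213, 112 and 77 counts in the control, shRNA 1 and shRNA 2, EPB41L4A-AS1 had 215, 181 and 518 counts and EPB41L4A-AS2 had 15, 22 and 16. The sense gene was lowest with shRNA 2, where EPB41L4A-AS1 was highest.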
